A study of Homo sapiens with 19 samples.

Results

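Metallothionein expression was examined in RNA-seq libraries of HepG2, a human liver cancer cell line, after depletion of INO80 or MCRS1 and after EPZ-6438 treatment. The genes were 8 metallothioneins (MT1A, MT1E, MT1F, MT1G, MT1H, MT1M, MT1X and MT2A), the zinc-sensing transcription factor MTF1 and the zinc exporter SLC30A1. They are a gene family with its regulator and an exporter, and all 10 were found by symbol among the 34825 genes of each table. INO80 is the ATPase of the INO80 chromatin remodeling complex, MCRS1 is a subunit of that complex, and EPZ-6438 inhibits the histone methyltransferase EZH2. The first experiment held NTG siRNA (the control), siINO80#1 and siINO80#2, with 3 libraries each. The second held NTG siRNA with DMSO (2 libraries), siMCRS1 with DMSO (3), NTG siRNA with EPZ-6438 (3) and siMCRS1 with EPZ-6438 (2). All cells received 50 nM siRNA and were harvested 72 h later, and in the second experiment EPZ-6438 or DMSO, each given in the labels as 1 uM, was added 3 days before transfection. Nothing in the labels says that the libraries of a group came from separate cultures, so p-values measure the spread between these libraries, which may be technical.

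Metallothioneins are small cysteine-rich proteins that bind zinc, copper and cadmium, and the liver is a main site of their synthesis. When free zinc rises, MTF1 enters the nucleus and binds short metal response elements in the promoters of metallothionein genes and of SLC30A1, whose product moves zinc out of the cell. Glucocorticoids and several stresses also induce these genes.

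The siRNAs lowered their targets. INO80 stood at 1175 to 1338 normalized counts (reads divided by 1 size factor per library) with NTG, at 576 to 639 with siINO80#1 and at 440 to 483 with siINO80#2. MCRS1 stood at 1201 to 1577 in the 5 NTG libraries of the second experiment and at 83.7 to 140 in the 5 siMCRS1 libraries. The libraries held 17093574 to 25369547 recovered reads in the first experiment and 26038505 to 47397233 in the second. Hepatocyte markers were abundant throughout, with ALB at 109073 to 280466 and AFP at 93429 to 314435, and MYOD1, a muscle gene, did not exceed 0.960. The 9 hepatocyte markers summed to 711131 to 874926 with NTG, 814808 to 1006084 with siINO80#1 and 572999 to 787255 with siINO80#2. Of the 9, 1 fell with siINO80#1 and 5 with siINO80#2, against 20.8% and 28.4% of all genes tested. With siMCRS1 2 of the 9 fell in DMSO, against 24.6% of all genes. In EPZ-6438 2 fell and 1 rose with siMCRS1, against 26.9% and 26.8%. The summed 6 markers of other cell types were 349 to 360 with NTG, 442 to 485 with siINO80#1 and 354 to 451 with siINO80#2. In the second experiment that sum was 226 to 502 in the NTG libraries and 621 to 984 in the siMCRS1 libraries, of which COL1A1, a collagen gene, held up to 772. The part of these shifts in the results that follow was not tested. Replicates C of siINO80#2 and A or B of the same group differed more than other replicate pairs of the first experiment, with a chi-square per degree of freedom of 84.3 and 121 against 9.45 to 18.7, and leaving out replicate C changed no call among the 10 genes.

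The 8 metallothionein genes lie together on chromosome 16 within 75613 bases of GRCh38.p14, chr16:56608584-56684196, in the order MT2A, MT1E, MT1M, MT1A, MT1F, MT1G, MT1H and MT1X. MT2A spans chr16:56608584-56609497 and MT1X chr16:56682470-56684196. MT1G is on the minus strand and the other 7 are on the plus strand. MTF1 (chr1:37809574-37859592) and SLC30A1 (chr1:211571568-211579161) lie on the minus strand of chromosome 1. The metallothioneins are paralogs with similar transcripts. Of all 31-base words in the main GENCODE transcript of MT1X, 54% also occurred in transcripts of other genes, and the share was 41.4% for MT1H, 40.5% for MT1M, 31.5% for MT2A, 31.1% for MT1G, 22.6% for MT1E, 18.9% for MT1A and 13.9% for MT1F. MTF1 shared 2.15% and SLC30A1 none of its words. Assignment of reads among the metallothioneins is therefore uncertain, most of all for low genes beside high ones, and whether the counting used strand is not given in the sources used here. RefSeq places the pseudogene RPS2P13 within MTF1, and no other gene overlapped a member.

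The set of promoters used here (RefSeq, GRCh38.p14) held 5 of the 10 genes, MT2A, MT1H, MT1X, MTF1 and SLC30A1. It had no entry for MT1A, MT1E, MT1F, MT1G and MT1M, although RefSeq gives their positions. The 250 bases before the gene start are shown for MT2A and MT1X, which rose with both INO80 siRNAs, for MT1H, which gave almost no reads, and for SLC30A1. They are written 5′ to 3′ on the strand of the gene, and capitals mark the metal response element core, TGCACNC or TGCGCNC on either strand. They cover chr16:56608334-56608583 (MT2A, plus strand), chr16:56682220-56682469 (MT1X, plus), chr16:56669564-56669813 (MT1H, plus) and chr1:211579162-211579411 (SLC30A1, minus).
MT2A: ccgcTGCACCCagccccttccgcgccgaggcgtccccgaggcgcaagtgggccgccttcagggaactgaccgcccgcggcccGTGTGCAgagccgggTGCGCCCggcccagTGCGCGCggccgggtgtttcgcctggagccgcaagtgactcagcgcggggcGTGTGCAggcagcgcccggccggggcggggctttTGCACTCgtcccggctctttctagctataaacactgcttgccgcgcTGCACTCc
MT1X: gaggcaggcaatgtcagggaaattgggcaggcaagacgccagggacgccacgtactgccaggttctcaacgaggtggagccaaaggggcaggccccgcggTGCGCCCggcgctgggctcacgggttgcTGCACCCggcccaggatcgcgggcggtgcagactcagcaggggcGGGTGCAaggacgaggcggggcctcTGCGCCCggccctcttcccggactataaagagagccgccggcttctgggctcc
MT1H: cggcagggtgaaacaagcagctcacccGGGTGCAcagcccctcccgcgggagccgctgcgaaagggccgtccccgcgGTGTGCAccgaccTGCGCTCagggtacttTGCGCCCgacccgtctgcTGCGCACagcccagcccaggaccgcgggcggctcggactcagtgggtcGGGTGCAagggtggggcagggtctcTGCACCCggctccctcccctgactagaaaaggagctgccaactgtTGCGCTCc
SLC30A1: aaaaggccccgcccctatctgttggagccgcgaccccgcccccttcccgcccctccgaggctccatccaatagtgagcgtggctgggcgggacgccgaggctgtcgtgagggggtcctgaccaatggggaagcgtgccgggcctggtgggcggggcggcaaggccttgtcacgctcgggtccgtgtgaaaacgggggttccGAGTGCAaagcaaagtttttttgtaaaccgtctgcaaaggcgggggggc
In the window from 250 bases before to 50 bases after the start, MT2A and MT1H each held 8 matches, MT1X held 4, SLC30A1 held 2 and MTF1 held 0. No matches overlapped within a promoter. At least 1 match was found in 29.6% of all 35116 promoters of the table, at least 3 matches in 1.63% and at least 5 in 0.114%. A match is a stretch of letters and not a measured site, and MT1H, with as many matches as MT2A, was at or near 0 in every library.

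**Figure D1:**
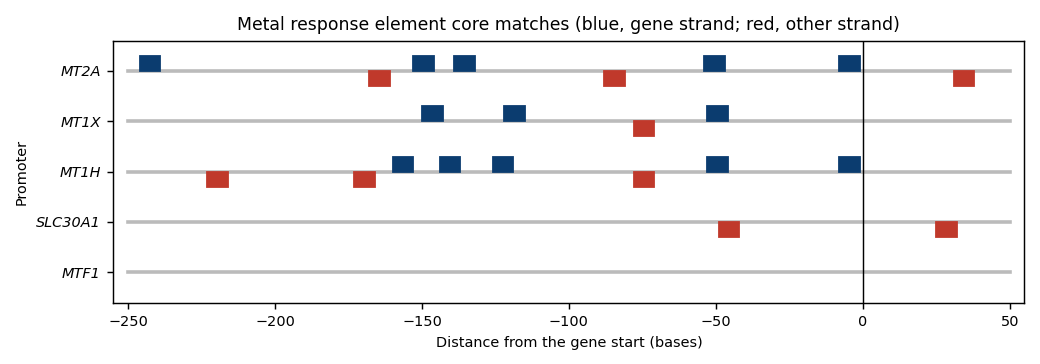
Positions of metal response element core matches in 5 promoters, by distance in bases from the gene start (vertical line), with blue boxes on the strand of the gene and red boxes on the other strand. MT2A and MT1H carry 8 boxes each, MT1X 4, SLC30A1 2 and MTF1 none.

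In control cells MT2A was the leading metallothionein. Per kilobase of its main transcript, its mean normalized count with NTG in the first experiment was 20749 ± 3456 (SD, n = 3). MT1E followed at 3331 ± 300 (n = 3), then MT1G at 2096 ± 136, MT1X at 1426 ± 126 and MT1F at 1187 ± 253 per kilobase (n = 3 each). Every library of MT2A lay above every library of MT1E, and likewise MT1E above MT1G and MT1G above MT1X, whereas MT1X and MT1F overlapped. SLC30A1 was next, at 391.6 ± 34.5 per kilobase. MTF1 (59.5 ± 4.48), MT1A (52.6 ± 26.1) and MT1M (26.2 ± 11.2) formed the low end, and each overlapped its neighbour in the order. The order of the 6 highest was the same in the DMSO NTG libraries, from MT2A at 47148 per kilobase (46028 and 48269) to SLC30A1 at 753 (753 in both libraries). The main transcript of MT1E is 746 bases, against 396 to 425 for the other metallothioneins, and MT1E was also second to MT2A in counts not divided by length.

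The remaining metallothionein loci were nearly silent. MT1H had 0 reads in 8 of the 9 libraries of the first experiment and 1 read in the ninth, and 0 to 6 reads in the second, so it was not tested. Of 12 other metallothionein genes and pseudogenes in the tables, 5 had 0 reads in every library and 11 had at most 6. MT1JP, a pseudogene, reached 29 reads. MT3 and MT4, the brain and epithelial forms, reached 1 and 0 reads.

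Several metallothionein transcripts were more abundant after depletion of INO80. Among the 9 genes that averaged 10 or more normalized counts, 6 rose with siINO80#1 and 7 with siINO80#2, and none fell. The limma fit across 14034 genes (adjusted p under 0.05) called 20.7% of all genes higher and 20.8% lower with siINO80#1, and 26.6% higher and 28.4% lower with siINO80#2. With both siRNAs 6 of the 9 genes rose, against 17.4% of all genes. They were the metallothioneins MT1E, MT1M, MT1X and MT2A, with MTF1 and SLC30A1. MT1F and MT1G passed with neither siRNA. The members, and the gene lists below, were chosen with earlier results of these data known, so these shares are descriptions. Both comparisons share the NTG libraries. Groups without overlap were common. Of all genes tested, 57.2% had none between siINO80#1 and NTG, 61.3% between siINO80#2 and NTG, and 38.8% between the siRNAs. The median difference over the 9 genes was 0.62 with siINO80#1 and 0.78 with siINO80#2 on the log2(value + 1) scale, on which all differences are given, beside 0.00095 and 1.6e-05 for all genes tested. In such bulk libraries more cells with these transcripts and more of them per cell cannot be told apart.

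MT2A, the most abundant form, showed the increase in every library. Its normalized counts with NTG were 7289, 9896 and 7777. With siINO80#1 they were 14063, 16753 and 15664, and with siINO80#2 they were 24176, 21283 and 23414. The 3 groups did not overlap. The difference from NTG was 0.91 ± 0.12 (SE, n = 3 against 3, adjusted p = 0.00017) with siINO80#1, or 1.87-fold. With siINO80#2 it was 1.47 ± 0.12 (adjusted p = 3.4e-06), or 2.78-fold. MT2A was also higher with siINO80#2 than with siINO80#1, by 0.57 ± 0.12 (adjusted p = 0.0073).

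MT1E, a second widely expressed form, followed the same order. It was at 2247, 2692 and 2515 normalized counts with NTG, at 4126, 4447 and 4281 with siINO80#1, and at 5769, 5440 and 5055 with siINO80#2. All siRNA libraries lay above all NTG libraries. It rose by 0.79 ± 0.082 (adjusted p = 3.7e-05) and 1.13 ± 0.082 (adjusted p = 1.8e-06). The difference between the siRNAs was 0.34 ± 0.082 (adjusted p = 0.015), and it fell short of the threshold without replicate A of siINO80#1 (adjusted p = 0.058) or of siINO80#2 (adjusted p = 0.055). Across all genes 9.48% were higher and 12.6% lower with siINO80#2 than with siINO80#1, and MT2A and MT1E were the 2 called of the 9.

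MT1M had the steepest change from a very low level. With NTG it was at 6.69, 9.24 and 15.4 normalized counts (6, 9 and 16 reads), with siINO80#1 at 65.6, 63.5 and 63.8, and with siINO80#2 at 90.9, 62.0 and 48.2. The NTG libraries did not overlap the others. The differences were 2.58 ± 0.31 (adjusted p = 8.5e-05) and 2.60 ± 0.31 (adjusted p = 4.2e-05). MT1M shared most 31-base words with MT1JP, MT1F and MT1E, of which MT1E had 2015 to 2622 reads in the NTG libraries.

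MT1X rose with both siRNAs and MT1A with siINO80#2. MT1X was at 632, 564 and 533 normalized counts with NTG, at 955, 865 and 839 with siINO80#1, and at 986, 831 and 984 with siINO80#2. It rose by 0.62 ± 0.097 (adjusted p = 0.00054) and 0.69 ± 0.097 (adjusted p = 0.00014). MT1A was at 13.4, 16.4 and 32.6 with NTG, at 25.0, 31.7 and 35.0 with siINO80#1, and at 47.1, 46.7 and 50.1 with siINO80#2. It rose with siINO80#2 (1.27 ± 0.30, adjusted p = 0.0046), while with siINO80#1 the groups overlapped and the difference was 0.62 ± 0.30 (adjusted p = 0.13). Without NTG replicate C the latter was 0.98 (adjusted p = 0.012).

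MT1F and MT1G did not pass the test with either siRNA. MT1G was at 801 to 912 normalized counts with NTG, 903 to 954 with siINO80#1 and 768 to 1039 with siINO80#2. Its differences were 0.10 (95% confidence interval -0.13 to 0.33) and 0.07 (-0.16 to 0.31). MT1F was at 442 to 629 with NTG, 470 to 543 with siINO80#1 and 385 to 463 with siINO80#2, with differences of 0.03 (-0.27 to 0.34) and -0.23 (-0.54 to 0.07). These intervals leave out a doubling of either gene.

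The regulator and the exporter rose as well. MTF1 was at 495, 490 and 431 normalized counts with NTG, at 768, 635 and 702 with siINO80#1, and at 850, 725 and 852 with siINO80#2, and both siRNA groups lay above NTG. It rose by 0.57 ± 0.10 (adjusted p = 0.0012) and 0.78 ± 0.10 (adjusted p = 8.5e-05). SLC30A1 was at 2079, 2469 and 2375 with NTG, at 2895, 2960 and 2997 with siINO80#1, and at 2876, 3233 and 2772 with siINO80#2. Its rise was 0.36 ± 0.083 with each siRNA (adjusted p = 0.0055 and 0.0036). Scaling each library to an equal total lowered the median of all genes by 0.080 and 0.108, and the SLC30A1 differences of 0.28 and 0.25 then missed the threshold (adjusted p = 0.065 and 0.073).

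**Figure D2:**
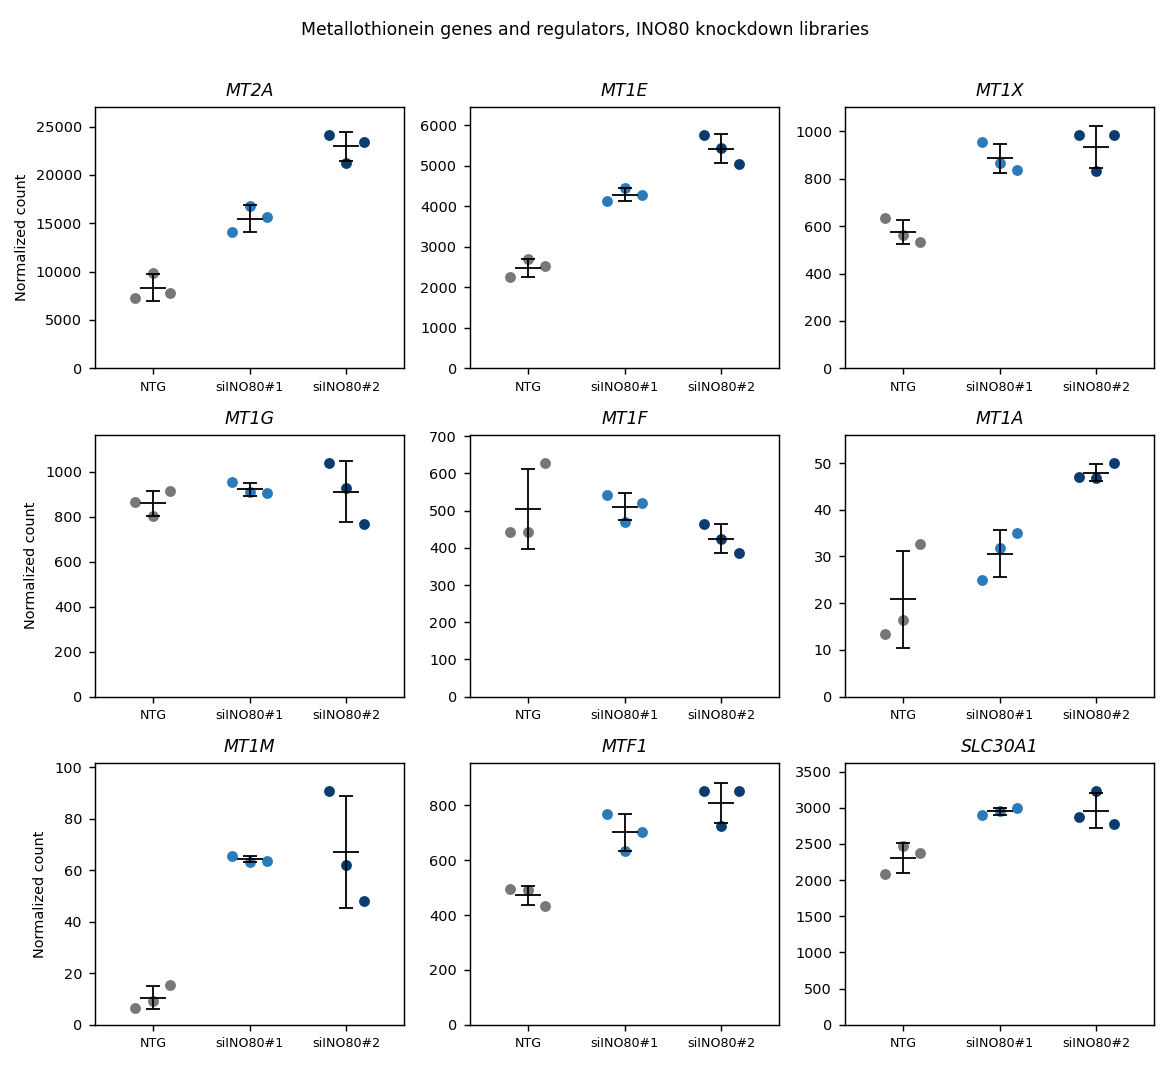
Normalized counts of 9 genes in each library of the INO80 experiment (points), with the mean and SD of each group (black bars, n = 3) and vertical axes from 0. MT2A rises from 7289 to 9896 with NTG to 21283 to 24176 with siINO80#2, while MT1F and MT1G overlap among groups.

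Summed over the 8 genes, metallothionein counts were 12777 ± 1496 with NTG, 22191 ± 1406 with siINO80#1 and 30763 ± 1781 with siINO80#2 (SD, n = 3 each), or 1.74 and 2.41 times the NTG mean. The 3 groups did not overlap. MT2A made up 62.6 to 68.6% of the sum with NTG, 67.8 to 71.2% with siINO80#1 and 73.4 to 76.3% with siINO80#2. MT1E kept 16.5 to 20.3% across the 9 libraries. The ratio of MT2A to MT1X went from 11.5 to 17.6 with NTG to 23.8 to 25.6 with siINO80#2.

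**Figure D3:**
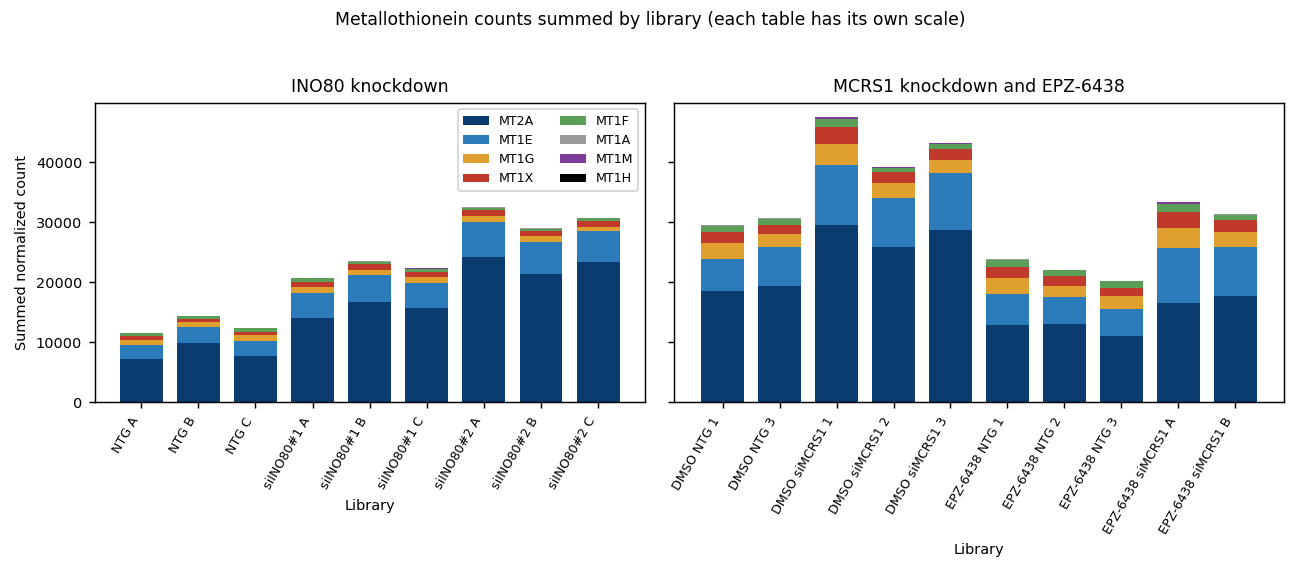
Normalized counts of the 8 metallothioneins stacked by library, with the INO80 experiment on the left and the MCRS1 and EPZ-6438 experiment on the right. The tables were normalized separately, so heights compare only within a panel, where siINO80#2 reaches 29012 to 32572 and EPZ-6438 NTG is lowest at 20197 to 23862.

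Some of these genes rose after depletion of MCRS1. In DMSO 3 of the 9 tested genes rose (MT2A, MT1E and MTF1), and in EPZ-6438 4 rose (the same 3 and MT1M). None fell. Across 14312 genes 23.1% were higher and 24.6% lower with siMCRS1 in DMSO, and 26.8% higher and 26.9% lower in EPZ-6438. Counts of 3 and 4 of 9 are not far from these shares and are no result about the set as a whole. The median difference over the 9 genes was 0.37 in DMSO and 0.44 in EPZ-6438, beside 0.0017 and 0.0060 over all genes tested. The 2 comparisons share no library. Of all genes tested, 66.8% had no overlap between siMCRS1 and NTG libraries in DMSO and 69.1% had none in EPZ-6438.

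MT2A stood at 18457 and 19356 normalized counts in DMSO NTG and at 29445, 25819 and 28730 in DMSO siMCRS1. In EPZ-6438 it was at 12912, 12994 and 11091 with NTG and at 16554 and 17782 with siMCRS1. The siMCRS1 libraries were above NTG within each treatment. The differences were 0.56 ± 0.11 in DMSO (adjusted p = 0.0015) and 0.48 ± 0.11 in EPZ-6438 (adjusted p = 0.0032). They were sensitive to scaling. Quantile normalization left 0.22 (adjusted p = 0.14) and 0.03 (adjusted p = 0.84), and scaling to equal totals left 0.24 in EPZ-6438 (adjusted p = 0.082) with the median of all genes at -0.23.

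MT1E gave the same order with less dependence on scaling. It was at 5416 and 6490 normalized counts in DMSO NTG and at 10124, 8195 and 9381 in DMSO siMCRS1, and at 5164, 4491 and 4495 in EPZ-6438 NTG against 9180 and 8026 in EPZ-6438 siMCRS1. It rose by 0.63 ± 0.13 (adjusted p = 0.0020) and 0.87 ± 0.13 (adjusted p = 0.00023), and stayed past the threshold under all 22 alternatives tried in DMSO and all 20 in EPZ-6438. MTF1 did so too. It was at 840 and 792 in DMSO NTG, at 1308, 1625 and 1397 in DMSO siMCRS1, at 608, 845 and 669 in EPZ-6438 NTG and at 1207 and 1374 in EPZ-6438 siMCRS1. MTF1 rose by 0.82 ± 0.15 (adjusted p = 0.0013) and 0.88 ± 0.15 (adjusted p = 0.00066).

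SLC30A1, which rose with both INO80 siRNAs, was at 4438 and 4440 normalized counts in DMSO NTG, 4076 to 4276 in DMSO siMCRS1, 4071 to 4470 in EPZ-6438 NTG and 3976 and 4166 in EPZ-6438 siMCRS1. Its differences were -0.08 (95% confidence interval -0.27 to 0.11) and -0.06 (-0.25 to 0.12). With equal totals they were -0.31 and -0.30 (adjusted p = 0.017 and 0.019), and after quantile normalization -0.29 and -0.32 (adjusted p = 0.021 and 0.011), so its call depends on scaling. INO80 and MCRS1 depletion were measured in separately normalized tables, and the difference between them was not tested.

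MT1M was uneven in the second experiment. It was at 61.3 and 25.8 normalized counts in DMSO NTG and at 194, 34.1 and 58.7 in DMSO siMCRS1, which overlapped (0.86 ± 0.71, adjusted p = 0.35). In EPZ-6438 it was at 44.2, 14.2 and 15.8 with NTG and at 207 and 94.97 with siMCRS1, a rise of 2.65 ± 0.71 (adjusted p = 0.0093) that missed the threshold without siMCRS1 replicate A (2.09, adjusted p = 0.081). The interaction of siMCRS1 and EPZ-6438 for MT1M, 1.78 ± 1.01, did not pass (adjusted p = 1). MT1X was at 1498 to 1766 in DMSO NTG and 1783 to 2856 in DMSO siMCRS1 (0.37 ± 0.21, adjusted p = 0.17), and at 1462 to 1864 and 1961 to 2630 in EPZ-6438 (0.44 ± 0.21, adjusted p = 0.094). The latter passed under 2 of 20 alternatives, with an adjusted p down to 0.030. MT1A, MT1F and MT1G had overlapping siMCRS1 and NTG groups in both treatments.

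In the second experiment, the column numbered 1 or lettered A was the highest of its group in all 4 groups for 5 of the 9 tested genes (MT1A, MT1F, MT1G, MT1M and MT1X), against 12.4% of all genes tested. MT2A, MT1E, MTF1 and SLC30A1 did not have this order. The labels do not say what the numbers mark. Leaving out these 4 libraries, a setting chosen after the data were seen, kept the MT1E and MTF1 calls in both treatments, and took MT2A in DMSO to 0.49 (adjusted p = 0.056). With the column number as a block over the 3 groups whose columns carry one, also chosen after the data were seen, MT1M (1.27, adjusted p = 0.0074) and MT1X (0.42, adjusted p = 0.024) passed with siMCRS1 in DMSO beside MT2A, MT1E and MTF1.

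**Figure D4:**
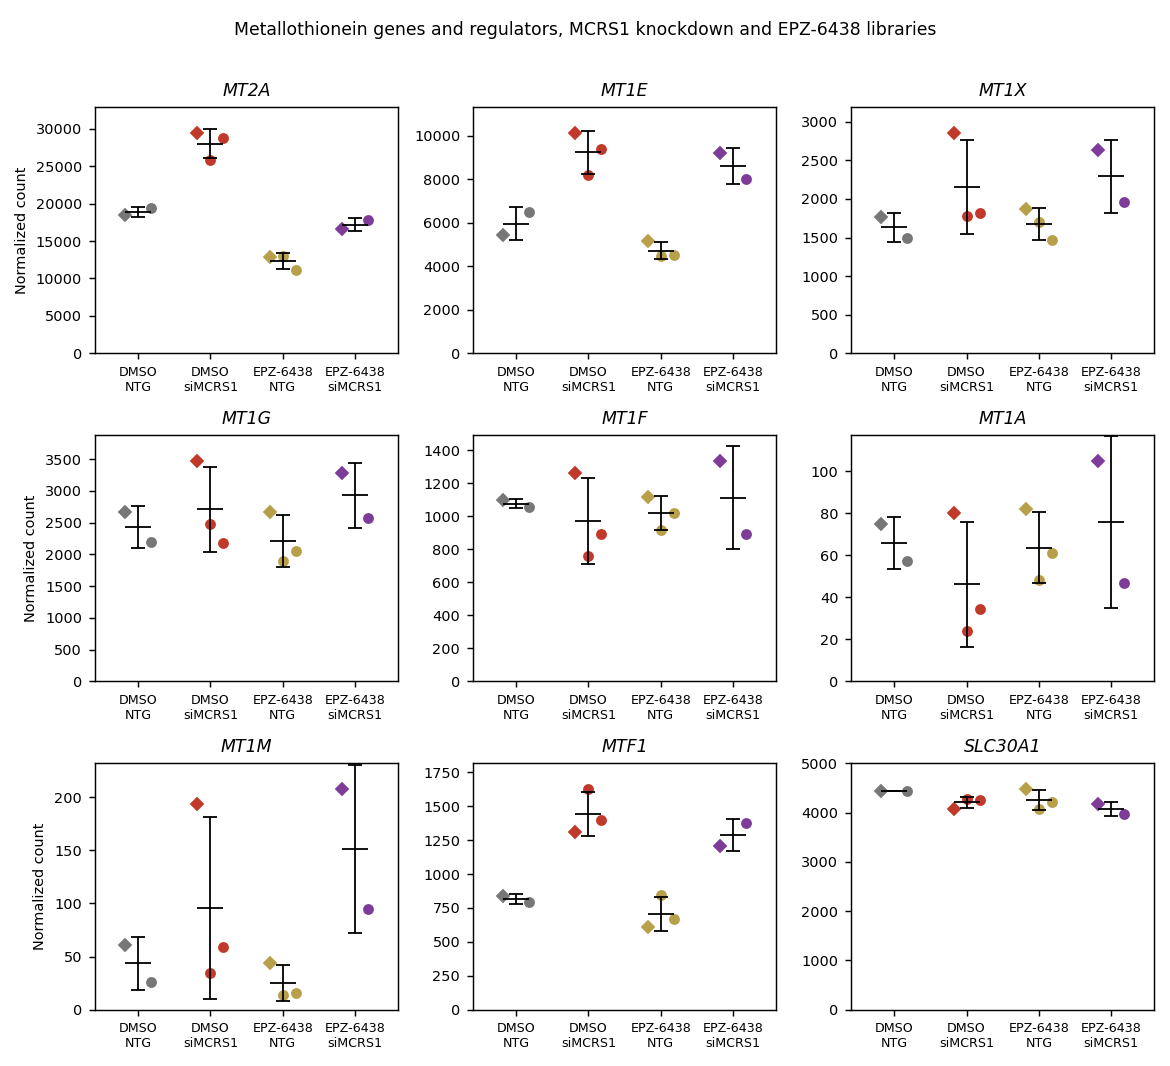
Normalized counts of 9 genes in each library of the MCRS1 and EPZ-6438 experiment (points), with the mean and SD of each group (black bars, n = 2 or 3) and vertical axes from 0. Diamonds mark libraries numbered 1 or lettered A, which are highest in every group for MT1A, MT1F, MT1G, MT1M and MT1X.

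MT2A was the 1 gene of the 9 called in EPZ-6438 against DMSO, and it was lower. The MT2A counts given above were all lower in EPZ-6438 than in DMSO with the same siRNA. The differences were -0.62 ± 0.11 with NTG (adjusted p = 0.045) and -0.70 ± 0.11 with siMCRS1 (adjusted p = 0.047). These comparisons share no library, but both p-values use the same spread estimate, from the 1 fit of all groups. Few genes passed here, with 0.321% higher and 0.0629% lower with NTG, and 0.0838% higher and 0.00699% lower with siMCRS1. EPZ-6438 and DMSO libraries did not overlap for 33.4% of all genes tested with NTG and for 25.2% with siMCRS1. MT2A was 1 of 9 genes called lower with NTG and the only gene called lower with siMCRS1. Both values lie close to the threshold. The difference stayed between -0.69 and -0.51 with NTG under the 22 alternatives tried, but passed in 8 of them, and between -0.76 and -0.62 with siMCRS1, where it passed in 5 of 20. Leaving out any DMSO NTG, EPZ-6438 NTG or EPZ-6438 siMCRS1 library ended both calls, as did leaving out DMSO siMCRS1 replicate 1 or 3 (adjusted p = 0.051 to 0.45). EdgeR on the recovered reads kept both (adjusted p = 0.044 and 0.039).

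MT1E was lower in EPZ-6438 than in DMSO in every NTG library but did not pass (-0.33 ± 0.13, adjusted p = 0.22), and with siMCRS1 its difference was -0.10 ± 0.13 (adjusted p = 0.89). MT2A made up 62.1 to 66.7% of summed metallothionein counts in the 5 DMSO libraries and 49.7 to 58.9% in the 5 EPZ-6438 libraries. The ratio of MT2A to MT1E was 2.91 to 3.41 in DMSO and 1.80 to 2.89 in EPZ-6438, and these ranges did not overlap. The summed count was 30113 ± 804 in DMSO NTG (n = 2), 43215 ± 4168 in DMSO siMCRS1 (n = 3), 22045 ± 1832 in EPZ-6438 NTG (n = 3) and 32337 ± 1360 in EPZ-6438 siMCRS1 (n = 2). No gene of the 14312 passed the interaction test (0%, limma), with 336 at an unadjusted p under 0.05, and for MT2A the interaction was -0.08 ± 0.15 (adjusted p = 1).

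**Figure D5:**
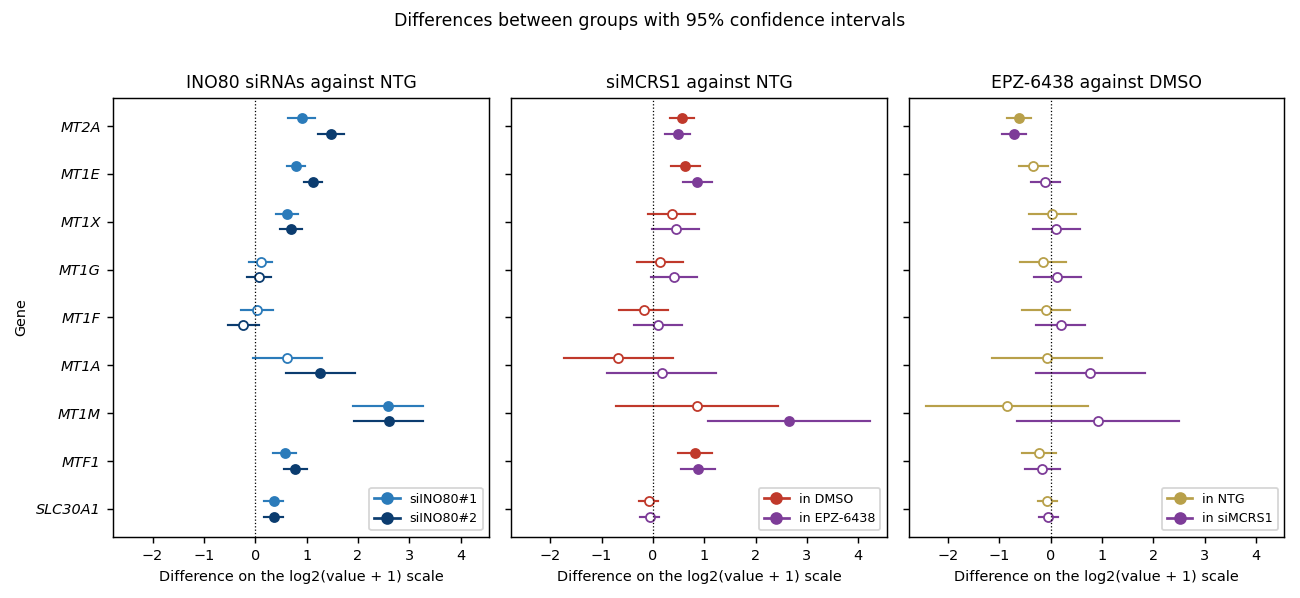
Differences between groups with 95% confidence intervals on the log2(value + 1) scale for 9 genes, with filled circles past an adjusted p of 0.05. MT2A lies right of 0 in the INO80 and MCRS1 panels and left of 0 in the EPZ-6438 panel, where its values are -0.62 and -0.70.

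Other zinc transporters moved in several directions. Of 7 tested SLC30 family exporters other than SLC30A1, 2 rose and 1 fell with both INO80 siRNAs (28.6% and 14.3%, against 17.4% and 17.2% of all genes). SLC30A10, a manganese and zinc exporter, fell from 406 to 695 normalized counts with NTG to 67.4 to 140 with siINO80#1 and 29.2 to 52.1 with siINO80#2 (-2.39 ± 0.29, adjusted p = 0.00011, and -3.77 ± 0.29, adjusted p = 2.9e-06). It fell with siMCRS1 as well (-2.25 in DMSO and -2.04 in EPZ-6438, adjusted p = 0.0042 and 0.0059). SLC30A7 and SLC30A6, exporters of the Golgi, rose with both INO80 siRNAs (SLC30A7 by 0.38 and 0.56, SLC30A6 by 0.22 and 0.59) and with siMCRS1 in both treatments. Of 12 tested SLC39 importers, 3 fell and 1 rose with both INO80 siRNAs (25% and 8.33%, against the same 17.2% and 17.4%). Shares this near to those of all genes are no result about either list. SLC39A5 fell by 0.86 and 1.85, SLC39A11 by 0.82 and 0.91, and SLC39A14, an iron and zinc importer of hepatocytes, by 0.46 and 1.08. With siMCRS1 2 importers rose and 4 fell in DMSO, against 23.1% and 24.6% of all genes, and 2 rose and 5 fell in EPZ-6438, against 26.8% and 26.9%, with SLC39A5 lower by 2.31 and 2.89.

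Copper genes fell more often than they rose with INO80 siRNAs. Of 12 tested, 6 fell and 0 rose with both siRNAs, against 17.2% of all genes that fell with both. ATOX1, a copper chaperone, fell by 0.59 and 0.69, CCS, the chaperone of superoxide dismutase, by 0.62 and 0.59, and COMMD1 by 0.50 and 0.69. With siMCRS1 2 of 12 fell in DMSO, against 24.6% of all genes, CCS by 1.53 ± 0.19 (adjusted p = 0.00012) and ATOX1 by 0.39 ± 0.14 (adjusted p = 0.039), a call lost under 9 alternatives.

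Of 10 stress genes inducible by metals or heat, 3 rose and 1 fell with both INO80 siRNAs, against 17.4% and 17.2% of all genes. HSPA1A, a heat shock chaperone, rose by 1.01 and 1.03, HSPH1 by 0.58 and 0.90, and SLC7A11, the cystine transporter, fell by 0.46 and 0.69. With siMCRS1 7 of 10 rose in each treatment and none fell, against 23.1% of all genes higher in DMSO and 26.8% in EPZ-6438. GCLC, which makes the glutathione precursor, rose by 1.41 in DMSO and 1.75 in EPZ-6438, SLC7A11 by 1.27 and 1.79, and TXNRD1, thioredoxin reductase, by 1.00 and 1.25. The list medians were 0.70 and 0.90. Of 6 tested neighbours of the metallothionein cluster, 3 fell and none rose with both INO80 siRNAs, against 17.2% and 17.4% of all genes. HERPUD1 fell by 0.88 and 1.06, BBS2 by 0.56 and 0.39, and NUDT21 by 0.27 and 0.82. Among 8 tested genes of the glucocorticoid receptor and its targets, KLF9 rose (0.49 and 0.83) and TAT fell (-0.55 and -0.81) with both INO80 siRNAs, against 17.4% of all genes that rose and 17.2% that fell with both. The TAT call with siINO80#1 was lost under 7 alternatives. With siMCRS1 3 rose in each treatment, against 23.1% and 26.8% of all genes, DUSP1 by 1.78 and 2.12.

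The genes whose pattern was most like the summed metallothionein count over the 9 libraries of the first experiment were PLK2 (Pearson r = 0.999), MMP14 (0.997) and PYGB (0.997), among 11514 genes averaging 50 or more normalized counts. Over the 10 libraries of the second they were ANKLE2 (0.977), ZNF354A (0.971) and PSMD2 (0.970), among 11826. The libraries within a group share their treatment, and these r values are descriptions. MT2A is the largest part of the sum and correlated with it at 0.999 in the first experiment and 0.971 in the second. In the same order MT1E was at 0.991 and 0.931, MT1M at 0.896 and 0.672, and MT1X at 0.890 and 0.598. MT1A was at 0.836 and -0.23, MT1G at 0.252 and 0.549, and MT1F at -0.439 and 0.00754. MTF1 correlated with the sum at 0.929 in the first experiment and 0.824 in the second, and SLC30A1 at 0.853 and -0.148.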

How the data were processed

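For each experiment the authors deposited a signal table that is never negative, in which the counts of a library have been divided by a common size factor. Per the labels, the processing notes name kallisto, DESeq2 and GRCh38, with no versions, and libraries were made with a stranded Kapa mRNA kit. Dividing by the smallest step gave whole numbers for 100% of values (tolerance 0.01), and these are called reads or recovered reads here. Whether they are tallied reads or rounded estimates from kallisto is not stated. A floor of 3 reads was worth 2.13 to 4.30 normalized counts, for counting error only. No column of per-sample values was left unmapped, and no ChIP-seq file was used.

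Genes averaging 10 or more were kept (14034 and 14312), 1 was added to each value before log2, and limma 3.58.1 (R 4.3.3; all groups of a table in 1 fit, eBayes with a trend, Benjamini-Hochberg) was used, with an adjusted p under 0.05 as the threshold. The fit was tested on simulated data. Alternatives were other pseudocounts, filters and scalings, edgeR 4.0.16 on recovered reads, a replicate block and leaving out libraries. Figures used Python 3.11.15 and matplotlib 3.10.9.

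All 10 members, INO80 and MCRS1 are named, with at most 3 called genes per list (average 50 or more, largest difference, or the smaller difference of the 2 siRNAs) and the 3 genes most like the sum. Members and lists were chosen with earlier results of these data known. Positions and promoters are RefSeq GRCh38.p14, and transcript lengths are from GENCODE (GRCh37).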

Additional observations from a re-analysis of the deposited data

How the results depend on the processing

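The counts of members called in either direction stayed within 1.5 times of the reported value under all alternatives for both INO80 siRNAs against NTG. With siMCRS1 in either treatment they did so too. The exception was DMSO with the column number as a block, where 3 became 5 (given with the pairing). A like count can hold different genes. With siMCRS1, equal totals and quantile normalization called SLC30A1 lower in both treatments. MT2A was then no longer called, except with equal totals in DMSO. For siINO80#2 against siINO80#1 the count of 2 became 1 with equal totals, and without single libraries it ranged from 1 to 2. For EPZ-6438 against DMSO in NTG libraries the count of 1 became 0 under quantile normalization, eBayes without a trend, the fit of only the groups compared, without the 4 libraries numbered 1 or lettered A and in the 3 groups with numbered columns (no block), and ranged from 0 to 1 without single libraries. With siMCRS1 the count of 1 became 0 under the first 4 of those settings, under a pseudocount of 0.1 and under equal totals, and ranged from 0 to 1 without single libraries. The cause was not tested. Differences that changed sign were MT1F with siINO80#1 (-0.046 with equal totals, -0.051 to 0.203 without single libraries), MT1G with siINO80#2 (-0.034 with equal totals, -0.025 to 0.192 without single libraries) and the MT2A interaction (0.074 without the 4 libraries). None of these had passed the test. Of the other comparisons of a named gene with an alternative, 97 lost the threshold, 9 gained it and 2076 kept their side.

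Equal totals moved the median of all genes by -0.080 and -0.108 for the INO80 siRNAs and by -0.23 for siMCRS1 in both treatments. The share of higher among called genes went from 49.9 to 39.8% (siINO80#1), 48.3 to 38.7% (siINO80#2), 48.4 to 27.1% (siMCRS1 in DMSO) and 49.9 to 30.2% (siMCRS1 in EPZ-6438).

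Libraries of the INO80 experiment share letters, but the letters are not said to mark a common culture. Deviations of same-lettered libraries correlated at a mean r of 0.10 (9 pairs, 5 above 0.1), against -0.05 for the others (18 pairs), and 8 of 9 libraries correlated best with one of their own letter, as a hint from the data. With the replicate block the counts were 6, 7 and 2, as without it. In the second experiment the columns of 3 groups carry numbers and those of the EPZ-6438 siMCRS1 group letters, and the labels do not say that either marks a shared culture. Over the 3 numbered groups, same-numbered deviations correlated at a mean r of 0.21 (7 pairs, 6 above 0.1, lowest -0.0169), against -0.10 for the others (14 pairs), and the 2 libraries of DMSO NTG mirror each other. With the column number as a replicate block there, chosen after the data were seen, siMCRS1 in DMSO gave 5 members against 3 without it, and EPZ-6438 in NTG gave 1 against 0 (MT2A -0.61, adjusted p = 0.023, against 0.053). For comparisons with EPZ-6438 siMCRS1 no paired analysis was run, because the labels do not state how its letters match the numbers. The DMSO NTG libraries are lettered A and C in the labels and their columns are numbered 1 and 3. That order would match 1 to A and 3 to C, and a block built on it was not tested.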
